A study of Mus musculus with 6 samples.

Results

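The Zfp genes are a large set of mouse genes named for the zinc finger, a small protein fold held together by a zinc ion. The set was taken as every listed gene whose symbol is Zfp followed by digits, leaving out Zfp36 and the Zfp36l genes, which encode RNA-binding proteins with another kind of finger. By this rule 185 of the 3733 genes in the deposited table were members. The annotation deposited with the table gives a C2H2 finger for 181 of the 185 and a KRAB box for 150, so the name matches the annotation for nearly all of them. The measurements are RNA sequencing of mouse hippocampus in 6 libraries, 2 in each of 3 groups. PIA+IL-27 received the immune activation and IL-27, PIA received the immune activation alone, and Control received neither by its label. PIA stands for postnatal immune activation in the series title, and the design text calls the same groups LPS+rIL-27, LPS and control, LPS being bacterial endotoxin. Strain, sex, age, doses and the number of animals behind a library are not given in the labels, so the p-values refer only to the spread between these 6 libraries. That spread was largely shared over genes, as described under the processing.

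As background, a C2H2 finger reads a few bases of DNA, and a protein with a row of such fingers recognises a longer stretch. The KRAB box at the front of many of these proteins recruits the corepressor Trim28, which in turn brings the histone methyltransferase Setdb1 and places repressive heterochromatin marks at the bound site. KRAB zinc finger genes lie in clusters of related copies, and many of the studied ones silence retroviral elements or keep genomic imprints in place. Many of them are expressed in the brain.

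By the authors' own values, each of the 3733 genes in the table differs by 2-fold or more, with a Q value no higher than 0.05, in 1 or more of the comparisons. The members are therefore the Zfp genes that the authors' test selected on these same libraries, and a count over them is read here against the other listed genes. Reads in listed genes ranged from 641672 to 1593441 per library.

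Most members shared a repeated coding sequence. A link of 14 bases that joins one finger to the next, read in frame with the third base of each codon free, was counted in the GENCODE M21 transcript with the longest coding sequence. At least 1 link was found in 160 of the 182 members with a matched transcript, against 57 of 3409 other listed genes, with a median of 6.5 links and a maximum of 17 in Zfp729a. Of the 941 gaps between successive links, 618, or 65.7%, were exactly 84 bases, which is 28 codons and the length of 1 finger with its link. The repeats below are successive 84-base units of Zfp40, on chromosome 17, and Zfp72, on chromosome 13, genes named again below among the members with the smallest p in PIA+IL-27 against PIA. They are shown as examples of the repeated unit that most members carry. The first base of the units lies at positions 1324, 1408 and 1492 of the Zfp40 coding sequence and at 628, 712 and 796 of that of Zfp72, and capitals mark the link.
Zfp40 repeat 1: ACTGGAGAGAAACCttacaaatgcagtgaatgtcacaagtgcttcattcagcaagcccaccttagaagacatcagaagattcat
Zfp40 repeat 2: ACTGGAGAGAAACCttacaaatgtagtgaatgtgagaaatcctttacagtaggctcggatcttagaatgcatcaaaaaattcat
Zfp40 repeat 3: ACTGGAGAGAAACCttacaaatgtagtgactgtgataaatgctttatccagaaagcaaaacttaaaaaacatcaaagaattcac
Zfp72 repeat 1: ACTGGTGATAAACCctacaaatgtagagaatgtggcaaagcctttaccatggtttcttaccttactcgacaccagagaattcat
Zfp72 repeat 2: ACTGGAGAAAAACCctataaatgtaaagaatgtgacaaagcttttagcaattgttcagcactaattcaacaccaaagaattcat
Zfp72 repeat 3: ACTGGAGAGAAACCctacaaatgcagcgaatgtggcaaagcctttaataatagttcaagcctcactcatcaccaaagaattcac

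Promoter windows of RefSeq, from 250 bases before to 50 bases after the start of a gene, were matched for 161 of the 185 members. The word AATGTAGT, searched on both strands, stood in 27 of these 161 windows, or 16.8%, against 1.35% of 2744 windows of other listed genes and 334 of all 27025 windows, or 1.24%. It was picked after counting every word of 8 letters and has the highest ratio of member share to overall share among words found in at least 20 members, so its excess describes these windows and is not a test. Extended by the base that kept the most member windows, it became TGGGAAATGTAGT, which contains the shorter word and stood in 24 member windows (14.9%), in 0.620% of those of other listed genes and in 0.492% of all windows. The 27 genes included 10 of chromosome band 13B3, 5 of 7A3 and 5 of 7B1, and whether the promoters of neighbouring genes are copies of each other was not tested. The 3 windows below belong to the members holding the word that the results name again with the smallest p in PIA+IL-27 against PIA. They are in build GRCm38.p6, written along the gene, with the word in capitals.
Zfp72, chr13:74390780-74391079, minus strand: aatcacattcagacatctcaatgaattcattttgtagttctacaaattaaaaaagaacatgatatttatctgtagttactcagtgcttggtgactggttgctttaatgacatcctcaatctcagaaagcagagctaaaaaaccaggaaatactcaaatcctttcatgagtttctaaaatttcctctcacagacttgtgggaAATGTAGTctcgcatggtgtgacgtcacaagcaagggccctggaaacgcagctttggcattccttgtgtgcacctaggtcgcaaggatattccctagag
Zfp605, chr5:110109842-110110141, plus strand: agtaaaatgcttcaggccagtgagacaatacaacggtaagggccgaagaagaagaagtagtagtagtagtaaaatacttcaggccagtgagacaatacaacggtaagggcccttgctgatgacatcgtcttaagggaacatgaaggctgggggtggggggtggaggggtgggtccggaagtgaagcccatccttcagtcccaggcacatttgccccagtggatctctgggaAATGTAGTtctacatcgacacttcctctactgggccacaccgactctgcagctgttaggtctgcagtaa
Zfp2, chr11:50916127-50916426, minus strand: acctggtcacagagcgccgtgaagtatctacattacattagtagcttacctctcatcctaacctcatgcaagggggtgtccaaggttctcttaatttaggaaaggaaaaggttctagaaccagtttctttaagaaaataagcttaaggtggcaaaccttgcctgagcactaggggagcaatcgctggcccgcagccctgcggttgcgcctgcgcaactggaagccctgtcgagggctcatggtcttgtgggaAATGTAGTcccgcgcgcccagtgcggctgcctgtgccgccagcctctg

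Other short words were counted in the same windows. CCAAT, the CCAAT box, stood in 54.7% of member windows, 38.4% of those of other listed genes and 37.9% of all windows. CCGGAAG, which holds the core recognised by Ets factors, stood in 21.7% of member windows, 10.2% of other listed and 9.12% of all. The GC box, searched as GGGCGG, was less frequent in members, at 40.4%, than in other listed genes, at 48.5%, but not than in all windows, at 35.9%. The cAMP response element, searched as TGACGTCA, stood in 4.97% of member windows, 2.51% of other listed and 1.88% of all. The TATA box, searched as TATAAA, stood in 4.97% of member windows, 10.6% of other listed and 14.2% of all. Each word was searched on both strands, and none of them contains another. The median GC content of member windows was 53.0% with 10 CG dinucleotides, against 57.7% with 13 CG dinucleotides in the 2744 windows of other listed genes and 52.7% with 7 in all windows. A match is a match of letters only.

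Summed over the 185 members, the level was 1021 and 827 TPM in the PIA+IL-27 libraries, 310 and 242 TPM in the PIA libraries, and 241 and 890 TPM in the Control libraries, where TPM is the abundance of a transcript scaled to a fixed library total. The group means were 924 ± 137 TPM in PIA+IL-27, 276 ± 48.3 TPM in PIA and 566 ± 459 TPM in Control (SD, n = 2 each). Both PIA+IL-27 libraries lay above both PIA libraries, while the Control libraries spanned the range, Control 1 with the PIA libraries and Control 2 with the PIA+IL-27 libraries. The level in bulk tissue does not separate the number of cells that express a gene from the RNA per cell.

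**Figure D1:**
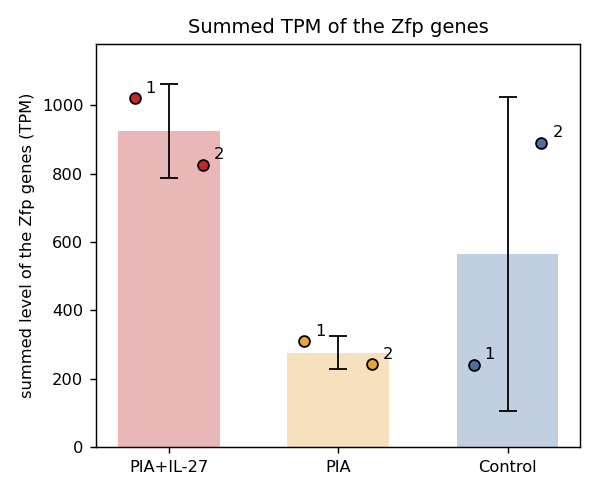
Summed TPM of the 185 Zfp genes per group (bars, mean; error bars, SD over 2 libraries; points, libraries numbered by replicate). PIA+IL-27 (1021 and 827 TPM) lies in the range of Control 2 at 890 TPM, and PIA (310 and 242 TPM) in that of Control 1 at 241 TPM.

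The same split ran through nearly every member. In 175 of 185 members, or 94.6%, both PIA+IL-27 libraries and Control 2 had more normalised reads than each of PIA 1, PIA 2 and Control 1, and the same held for 52.4% of all 3733 listed genes. The normalised read count is the authors' read count, rounded up to a whole number, divided by 1 factor per library. The highest of the 6 values was in PIA+IL-27 1 for 135 members, in PIA+IL-27 2 for 23, in PIA 2 for 1 and in Control 2 for 26. PIA 1 and Control 1 held the highest value for 0 members. On a log2 scale with 0.5 added, the median ratio of replicate 2 to replicate 1 was -0.35 in PIA+IL-27, -0.33 in PIA and 1.73 in Control, where 181 of 185 members were higher in Control 2. Over the other 3548 listed genes these medians were -0.25, -0.33 and 1.20. The libraries of a group differed by over 2-fold in 21 members in PIA+IL-27, in 28 in PIA and in 166 in Control, against 33.9%, 34.6% and 71.8% of all listed genes. The Control libraries thus lay far apart in most members, as in most listed genes, and every comparison with Control below rests on a group whose libraries disagree. Control 1 resembled the PIA libraries and Control 2 the PIA+IL-27 libraries, and whether each library carries the right label was not tested.

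**Figure D2:**
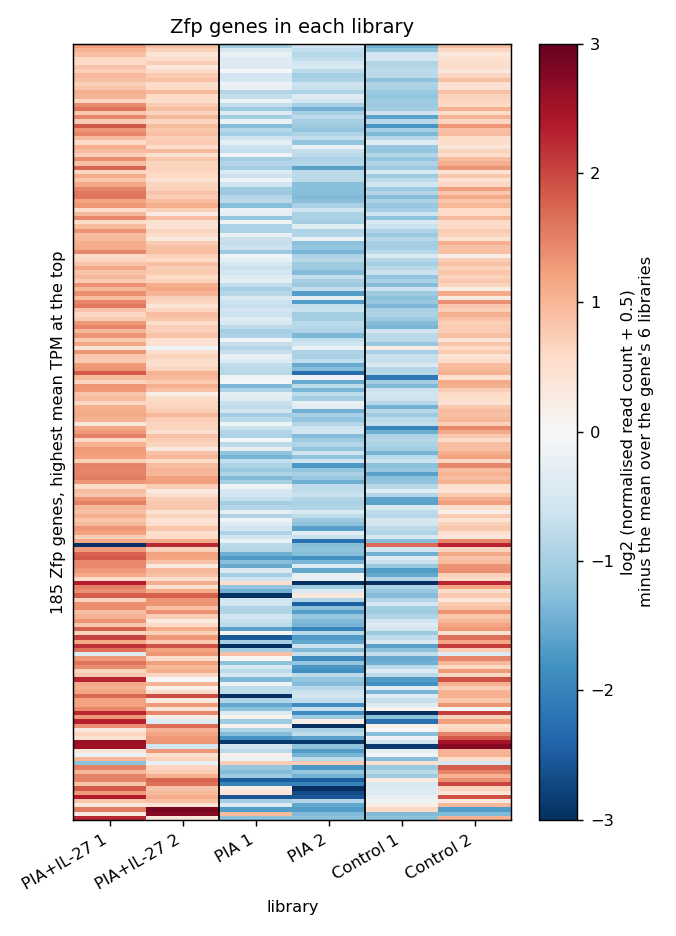
Log2 normalised read count (0.5 added) of each of the 185 Zfp genes minus the mean over its 6 libraries, with genes ordered by mean TPM and red above, blue below the mean; colours end at 3 and -3. The PIA+IL-27 libraries and Control 2 are red, and the PIA libraries and Control 1 blue, in most rows.

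The 10 members without this split were Zfp112, Zfp385c, Zfp459, Zfp474, Zfp534, Zfp54, Zfp831, Zfp872, Zfp951 and Zfp996, named after their values were seen. Zfp385c had 2.09 and 4.85 normalised reads in PIA+IL-27, 9.61 and 9.82 in PIA, and 7.84 and 3.81 in Control. It was the single member whose PIA+IL-27 libraries both lay below its PIA libraries, and its reads were too few for the filter on low counts. Zfp831 had 22.9 and 37.9 in PIA+IL-27, 29.8 and 9.82 in PIA, and 24.5 and 55.2 in Control. Its PIA libraries lay on either side of the lower PIA+IL-27 library.

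Libraries also differed in markers of cells and regions near the hippocampus, whose part in these results was not tested. The 6 listed of 12 neocortical markers summed to 8710 and 1782 normalised reads in PIA+IL-27, 2653 and 5992 in PIA, and 2792 and 1288 in Control. All 10 choroid plexus markers were listed and summed to 192 and 860 in PIA+IL-27, 12010 and 439 in PIA, and 306 and 61865 in Control. The 6 listed of 7 ependymal markers summed to 171 and 1089 in PIA+IL-27, 307 and 274 in PIA, and 788 and 955 in Control. The 4 listed of 8 dentate granule cell markers summed to 919 and 1900 in PIA+IL-27, 945 and 309 in PIA, and 823 and 1942 in Control. Among them only Stxbp6 was highest in the 3 libraries with high Zfp sums. It had 709 and 417 in PIA+IL-27, 201 and 168 in PIA, and 118 and 424 in Control. The other listed ones, Prox1, Dsp and Lct, did not follow this order, with PIA+IL-27 1 below PIA 1 in each. The 2 listed of 6 markers of CA pyramidal cells summed to 215 and 1113 in PIA+IL-27, 1631 and 507 in PIA, and 1245 and 1736 in Control. The single listed microglial marker of 6, P2ry12, had 258 and 184 in PIA+IL-27, 9.61 and 56.7 in PIA, and 14.7 and 232 in Control, so the 3 libraries with high Zfp sums were also its 3 highest. The 2 listed of 4 astrocyte markers went opposite ways. Gfap had 4066 and 4747 in PIA+IL-27, 17945 and 6035 in PIA, and 13757 and 5522 in Control, and Aqp4 had 1786 and 1908 in PIA+IL-27, 1031 and 457 in PIA, and 643 and 1975 in Control, so Aqp4 was highest and Gfap lowest in the 3 libraries with high Zfp sums. The 4 listed of 5 neutrophil and monocyte markers summed to 78.2 and 34.95 in PIA+IL-27, 1327 and 46.9 in PIA, and 363 and 13.3 in Control. None of 4 endothelial markers was listed.

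The libraries also differed in reads of the Y chromosome, which a male animal carries. The 5 listed Y-linked genes summed to 1486 and 6.80 normalised reads in PIA+IL-27, 543 and 599 in PIA, and 2.94 and 9.52 in Control. Kdm5d, one of them, had 234 and 0 in PIA+IL-27, 145 and 151 in PIA, and 0 and 0 in Control. PIA+IL-27 1 and both PIA libraries thus had Y-linked reads throughout, and PIA+IL-27 2 and both Control libraries had few or none. In PIA against Control, sex by these reads and treatment cannot be told apart, and the other comparisons mix them. Among the libraries with such reads, PIA+IL-27 1 against both PIA libraries gave a median member log2 fold change of 1.97, with 174 of 177 above 0. Among those without, PIA+IL-27 2 against both Control libraries gave 0.54, with 161 of 175 above 0. Each value rests on 1 PIA+IL-27 library, and the second also on Control libraries that lay far apart. In the fits to all 6 libraries, the medians over all tested genes were 1.17 and 0.55 in these 2 comparisons. There 74.8% and 73.3% of all tested genes were above 0, so a shift upward in the fits to all 6 libraries was not particular to members. For the fits with 1 PIA+IL-27 library no value over all tested genes is given here. By the Zfp sums, Control 2 and PIA+IL-27 2 were high and Control 1 low among the libraries with few or no Y-linked reads. Among those with such reads, PIA+IL-27 1 was high and both PIA libraries low. The part of sex in the Zfp values was not tested.

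The question of PIA+IL-27 against PIA is what IL-27 adds to the immune activation. Every member that passed the filter on low counts, 173 of 185, had a fitted log2 fold change above 0, with a median of 1.82 and quartiles of 1.33 and 2.25. Of all 3216 tested genes 74.8% were above 0, with a median of 1.17. No member passed at an adjusted p under 0.05 in edgeR's quasi-likelihood test (smallest adjusted p = 0.0902), where 0.0622% of all tested genes passed as higher and 0.373% as lower. At an unadjusted p under 0.05, 67 of 173 members were higher and 0 lower in edgeR, against 14.4% and 4.35% of all tested genes. DESeq2 and limma also called 0 members. A fit to the 4 PIA+IL-27 and PIA libraries alone, in which the spread of Control has no part, called 51 of 165 tested members and 449 of 3006 genes. With factors computed over the listed genes, the median of all genes was -0.04 (TMM) and -0.01 (median of ratios) in place of 1.17, and the member median was 0.56 and 0.60, with 140 and 144 of 173 members above 0.

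Counted without a model, 179 of 185 members had both PIA+IL-27 libraries above both PIA libraries, where 57.1% of all listed genes did, and 1 member had both below, where 16.5% did. The 5 members whose groups overlapped were Zfp459, Zfp474, Zfp831, Zfp872 and Zfp951. The authors' deposited table listed 180 members as higher, against 61.4% of all listed genes, and 1 as lower, against 18.2%. Since 181 of the 185 members met the authors' rule in this comparison, large differences without overlap were favoured by the selection. The counts are therefore no separate support.

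Zfp758, a KRAB gene of band 17A3, had the smallest p. It had 21.9 and 8.74 normalised reads in PIA+IL-27, 0 and 0 in PIA, and 1.96 and 19.996 in Control. PIA+IL-27 was at least 9.99-fold higher than PIA, taking 3 counts over the PIA group as the floor (adjusted p = 0.0902, edgeR). Its reads were few in all 6 libraries. With Zfp758 set at this bound, the member median remained 1.82.

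Zfp738, of band 13B3, had 78.2 and 46.6 normalised reads in PIA+IL-27, 2.88 and 5.45 in PIA, and 10.8 and 60.0 in Control (log2 fold change 3.86 ± 1.15 against PIA, SE, n = 2 per group; adjusted p = 0.139, edgeR). Zfp979, of band 4E1, had 34.4 and 28.2 in PIA+IL-27, 0 and 4.36 in PIA, and 1.96 and 32.4 in Control (3.81 ± 1.33, adjusted p = 0.227). Zfp72, whose repeats and promoter are printed above, had 66.7 and 41.7 in PIA+IL-27, 5.77 and 4.36 in PIA, and 12.7 and 47.6 in Control (3.38 ± 1.14, adjusted p = 0.227). In each of these 3 genes the lower PIA+IL-27 library lay several-fold above the higher PIA library. Zfp40 had 235 and 136 in PIA+IL-27, 36.5 and 13.1 in PIA, and 36.2 and 136 in Control (2.89 ± 0.96, adjusted p = 0.227). No member had a fold change below 0 to be named.

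**Figure D3:**
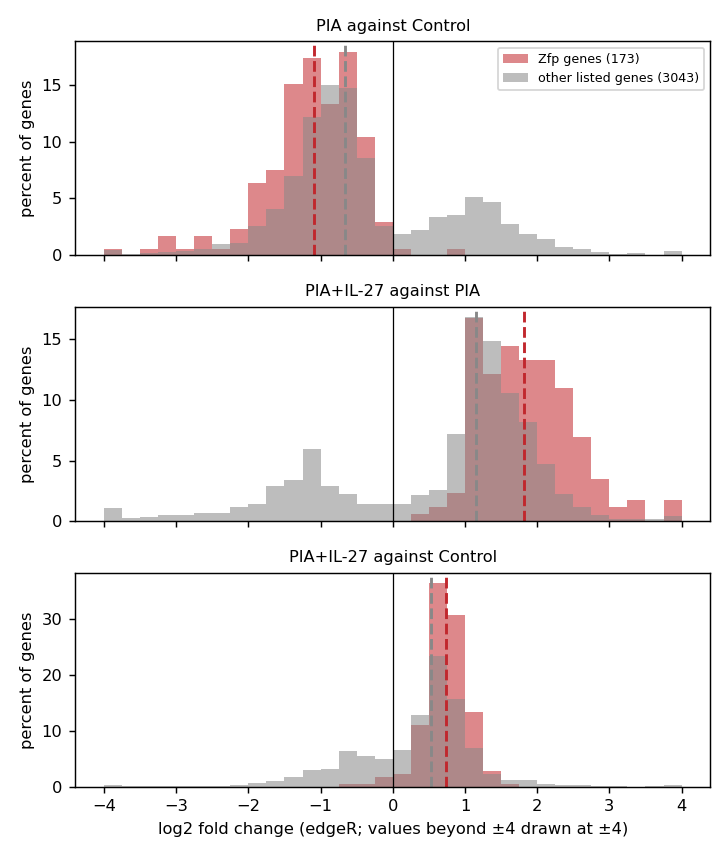
Distribution of edgeR log2 fold changes of 173 Zfp genes and 3043 other listed genes in the 3 comparisons, in percent of each set; dashed lines are medians. The Zfp medians are -1.09, 1.82 and 0.73 from top to bottom, against -0.66, 1.15 and 0.53 in the other listed genes. Without Control 2 the first Zfp median turns to 0.10, and no such value is given for the other listed genes.

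The 5 most abundant members had smaller fold changes than these. Zfp445, which with Zfp57 keeps genomic imprints in the embryo, had the highest mean level, with 40.4 and 32.4 TPM in PIA+IL-27, 7.96 and 10.2 TPM in PIA, and 5.86 and 34.5 TPM in Control. Its log2 fold change of PIA+IL-27 against PIA was 1.86 ± 0.82 (adjusted p = 0.257, edgeR). Zfp146 had 32.3 and 26.7 TPM in PIA+IL-27, 10.7 and 8.52 TPM in PIA, and 6.23 and 26.6 TPM in Control (1.47 ± 0.86, adjusted p = 0.286). Zfp326, part of a complex that couples transcription to splicing, had 30.2 and 21.8 TPM in PIA+IL-27, 12.6 and 8.09 TPM in PIA, and 9.91 and 21.7 TPM in Control (1.19 ± 0.86, adjusted p = 0.326). Zfp318, needed for the splicing choice between IgM and IgD in B cells, had 20.4 and 20.5 TPM in PIA+IL-27, 10.6 and 7.67 TPM in PIA, and 10.2 and 21.1 TPM in Control (1.12 ± 0.83, adjusted p = 0.329). Zfp266 had 18.7 and 21.3 TPM in PIA+IL-27, 8.89 and 7.44 TPM in PIA, and 6.14 and 19.4 TPM in Control (1.14 ± 0.84, adjusted p = 0.327). In each of these 5 genes the PIA+IL-27 libraries and Control 2 formed one cluster and the other 3 libraries another. Relative to the median of all listed genes the last 3 stood near 0, and their fold changes turned to -0.05, -0.11 and -0.08 with TMM factors. Over all members the mean level ran from 0.0400 to 21.9 TPM with a median of 2.10, and 55 of 185 were under 1 TPM.

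The list of members with a known role held 12 listed genes, and all 12 had PIA+IL-27 libraries above their PIA libraries without overlap. The same held for 179 of all 185 members and for 57.1% of all listed genes. Their median log2 fold change was 1.84, close to that of all members, and none passed. Zfp809, which silences murine leukaemia type retroviruses through their primer binding site, had 37.5 and 32.0 normalised reads in PIA+IL-27, 5.77 and 6.55 in PIA, and 8.82 and 37.1 in Control (2.48 ± 1.16, adjusted p = 0.258, edgeR). Zfp932, which represses endogenous retroviruses in mouse embryonic stem cells, had 538 and 286 in PIA+IL-27, 59.6 and 70.9 in PIA, and 44.1 and 368 in Control (2.68 ± 0.89, adjusted p = 0.227). It shared 55.5% of its 50-base windows with other transcripts, mainly its close copy Gm15446, so its reads may be split with that gene. Zfp638, whose human counterpart takes part in silencing unintegrated retroviral DNA, had 755 and 471 in PIA+IL-27, 116 and 91.6 in PIA, and 119 and 517 in Control (2.56 ± 0.87, adjusted p = 0.231).

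Transcription factors and chromatin partners without a KRAB box also had more normalised reads in PIA+IL-27 than in PIA. Zfp644, whose human counterpart binds the histone methyltransferases G9a and GLP, had 567 and 405 normalised reads in PIA+IL-27, 125 and 99.3 in PIA, and 112 and 416 in Control (2.11 ± 0.87, adjusted p = 0.257, edgeR). Zfp292, whose human counterpart is mutated in intellectual disability, had 348 and 272 in PIA+IL-27, 109 and 58.9 in PIA, and 90.1 and 304 in Control (1.88 ± 0.90, adjusted p = 0.260). Zfp281, a pluripotency factor of embryonic stem cells, had 463 and 327 in PIA+IL-27, 136 and 86.2 in PIA, and 137 and 319 in Control (1.83 ± 0.88, adjusted p = 0.263). Control 1 stood between the PIA libraries in Zfp644 and Zfp292 and just above them in Zfp281. Zfp804a, whose human counterpart is linked to schizophrenia, had 196 and 186 in PIA+IL-27, 75.9 and 43.6 in PIA, and 68.6 and 193 in Control (1.67 ± 0.94, adjusted p = 0.278). Zfp462, whose human counterpart is mutated in a developmental disorder, had 800 and 921 in PIA+IL-27, 437 and 238 in PIA, and 412 and 773 in Control (1.35 ± 0.85, adjusted p = 0.300). Zfp148, a factor that binds GC-rich DNA, had 926 and 851 in PIA+IL-27, 479 and 272 in PIA, and 300 and 859 in Control (1.24 ± 0.85, adjusted p = 0.315). Zfp366, known from dendritic cells, had 25.03 and 11.7 in PIA+IL-27, 10.6 and 4.36 in PIA, and 3.92 and 16.2 in Control (1.27 ± 1.21, adjusted p = 0.376).

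**Figure D4:**
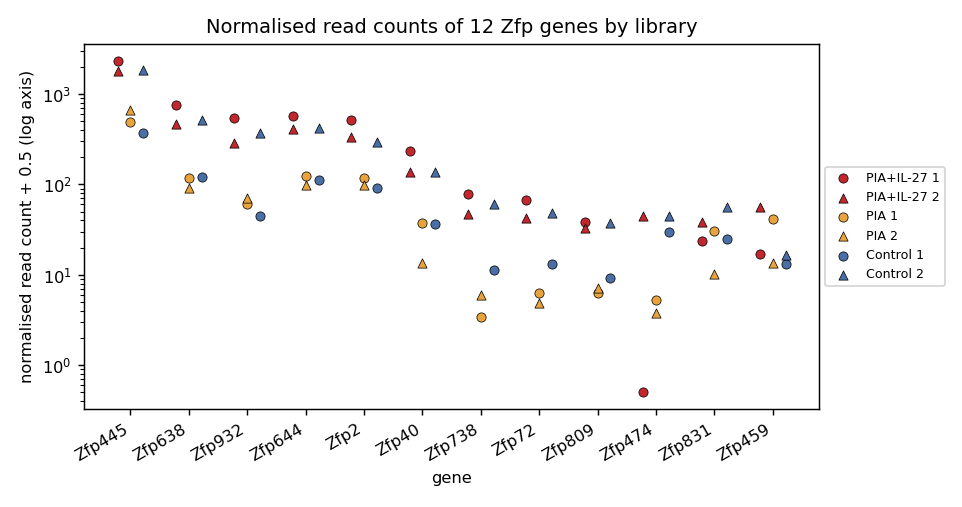
Normalised read counts (0.5 added, log axis) of 12 Zfp genes in each library, circles for replicate 1 and triangles for replicate 2. In the first 9 genes both PIA+IL-27 libraries and Control 2 lie above the other 3; Zfp474, Zfp831 and Zfp459 break this order.

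The comparison of PIA against Control asks what the immune activation alone did, in groups that also differ in Y-linked reads. Of the 173 tested members, 2 had a log2 fold change above 0 and 171 below, with a median of -1.09, against 72.2% of all tested genes below 0 and a median of -0.68. No member passed in edgeR (smallest adjusted p = 0.248), where 0.155% of all tested genes passed as higher and 0.0622% as lower. At an unadjusted p under 0.05, 8 members were lower and 0 higher, against 3.23% and 3.05% of all tested genes. DESeq2 and limma also called 0 members. With TMM factors the median was -0.31 with 47 of 173 members above 0. The direction depended on a single library. Without Control 2 the median turned to 0.10 with 106 of 178 members above 0, and without Control 1 it was -1.66. Control 2 was over 2-fold above Control 1 in 164 of 185 members and in 59.0% of all listed genes. Values over all tested genes are not given here for the TMM fit or the fits without 1 library. Whether these changes were particular to members is therefore not shown.

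Without a model, 47 of 185 members had both PIA libraries below both Control libraries, against 16.5% of all listed genes, and 1 member, Zfp385c, had both above, against 17.2%. The authors' deposited table listed 104 members as lower, against 34.4% of all listed genes, and 0 as higher, against 18.0%. The members higher in the fit were Zfp459, with 41.3 and 13.1 normalised reads in PIA and 12.7 and 16.2 in Control (log2 fold change 0.91 ± 1.10, adjusted p = 0.636, edgeR), and Zfp472, with 37.5 and 36.0 in PIA and 8.82 and 57.1 in Control (0.15 ± 1.01, adjusted p = 0.899). Their groups overlapped. Among the lower ones, Zfp758 was at least 7.16-fold lower in PIA against the same floor of 3 counts (adjusted p = 0.248), and Zfp738 was at -3.02 ± 1.16 on the log2 scale (adjusted p = 0.549).

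Zfp474, a member with no KRAB box and no link, had 4.80 and 3.27 normalised reads in PIA and 29.4 and 43.8 in Control (-3.14 ± 1.20, adjusted p = 0.553, edgeR). In PIA+IL-27 it had 0 and 43.7, so 1 library of that group stood below and 1 above the PIA libraries. The ependymal marker sums were also lowest in PIA+IL-27 1 and both PIA libraries, and their part in this was not tested. Zfp97 had 1.92 and 1.09 in PIA and 0 and 23.8 in Control (-3.39 ± 1.64, adjusted p = 0.617), a difference that rests on Control 2. Zfp979, described above, was at -2.95 ± 1.34 (adjusted p = 0.617), and without Control 2 it had 4 reads in PIA and 2 in Control.

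The comparison of PIA+IL-27 against Control asks how far tissue given both treatments lay from that given neither. Of 173 tested members 168 were above 0 and 5 below, with a median log2 fold change of 0.73, against 73.3% above 0 and a median of 0.55 over all tested genes. No member passed in edgeR (smallest adjusted p = 0.835), where 0.187% of all tested genes passed as higher and 0.124% as lower, and 0 members passed in DESeq2 or limma. At an unadjusted p under 0.05, 0 members were higher or lower, against 1.65% and 1.21% of all tested genes. In 69 of 185 members both PIA+IL-27 libraries exceeded both of Control, against 23.0% of all listed genes, and in 0 both were lower, against 7.50%. The authors' deposited table listed 27 members as higher, against 13.3% of all listed genes, and 0 as lower, against 8.57%. Without Control 2 the member median was 1.92 and without Control 1 it was 0.12, and medians over all tested genes are not given here for these fits.

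Zfp984, of band 4E1, had 55.3 and 54.4 normalised reads in PIA+IL-27 and 5.88 and 26.7 in Control (log2 fold change 1.74 ± 1.08, adjusted p = 0.835, edgeR). Zfp605 had 266 and 219 in PIA+IL-27 and 41.1 and 164 in Control (1.24 ± 0.93, adjusted p = 0.835). Zfp2 had 518 and 332 in PIA+IL-27 and 91.1 and 295 in Control (1.14 ± 0.88, adjusted p = 0.835). These groups did not overlap, yet in Zfp2 and Zfp605 Control 2 lay nearer to PIA+IL-27 than to Control 1. Zfp948 (1.21 ± 0.95) and Zfp433 (1.33 ± 1.05) were the next by p, with the same adjusted p of 0.835. The lower members by p were Zfp474 (-0.74), Zfp831 (-0.39), Zfp112 (-0.24), Zfp934 (-0.23) and Zfp97 (-0.20), with overlapping groups in each.

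The comparisons PIA+IL-27 against PIA and PIA against Control share the PIA libraries, so their opposite signs are not separate observations. In Zfp40, for example, the low value was that of the shared PIA libraries and of Control 1.

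Members lay in 56 chromosome bands of the deposited annotation, and 12 bands with at least 5 members held 124 of the 185. In PIA+IL-27 against PIA the band medians ran from 1.16 to 2.44 among these 12. Band 17A3, with 22 members that all have a KRAB box, had a median log2 fold change of 2.44 over 21 tested, and band 13B3, also with 22 KRAB members, 2.09 over 20. Band 9A3 had 1.16 over 8 and band 8B3 had 1.23 over 7. The bands 17A3 and 13B3 also had lower GC content, at a median of 38.01% in 17A3 and 38.9% in 13B3, against 43.2% in 9A3 and 41.4% in 8B3. The order did not hold throughout, since band 4E1, with the lowest GC content of the 12 at 36.0%, had a median of 1.82 over 7, and band 7B1, with the highest at 46.2%, had 1.47 over 7. Members with a KRAB box had a median of 1.83 over 141 tested, and members without one 1.65 over 32.

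The members had low GC content as a set. The median over the whole transcript was 40.01% in 182 members, with quartiles of 38.4 and 42.4%, against 45.7% in 3409 other listed genes. In the coding sequence it was 41.2%, against 48.7%, and in the part after the stop codon 36.9%, against 39.6%. Transcript length was close, with a median of 3444 bases in members and 3369 in others. Across the 171 tested members with a transcript, Spearman's rho between GC content and log2 fold change was -0.57 in PIA+IL-27 against PIA, 0.49 in PIA against Control and -0.22 in PIA+IL-27 against Control. Across 2950 other listed genes these were -0.62, 0.36 and -0.44, and genes of a library are not independent of each other.

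The member medians of PIA+IL-27 against PIA ran in order along GC content. In this comparison the 31 members with up to 38% GC had a median log2 fold change of 2.43, and the 128 other listed genes of that range 1.79. The 51 members above 38 and up to 40% had 2.07, against 1.66 in 234 others, and the 38 above 40 and up to 42% had 1.78, against 1.44 in 430 others. The 35 above 42 and up to 46% had 1.46, against 1.29 in 828 others. The 16 members above 46% had 1.28, against -0.20 in 1330 others. Members thus stood above the other listed genes within each of these 5 ranges in this comparison, while both sets followed GC content. The last range is open above 46% and members reach at most 56.3%, so the sets need not be alike in GC content within it. In PIA+IL-27 against Control the medians, from the lowest range up, were 0.78, 0.84, 0.73, 0.66 and 0.53 in members. In the other listed genes they were 0.73, 0.73, 0.68, 0.62 and -0.02. With trends on GC content and length removed in each library, the member median was 0.38 in PIA+IL-27 against PIA, -0.20 in PIA against Control and 0.11 in PIA+IL-27 against Control, against 0.08, 0.01 and 0.04 over all tested genes, and 131 of 171 members were above 0 in the first. The ratio of Control 2 to Control 1 had a rho with GC content of -0.26 in members and -0.49 in other listed genes. Whether base composition shaped these fold changes was not tested beyond these values.

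**Figure D5:**
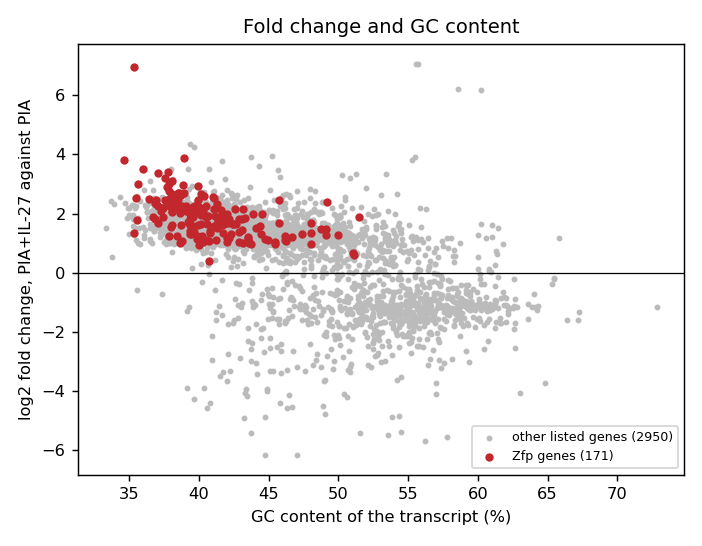
Log2 fold change of PIA+IL-27 against PIA and GC content of the transcript for 171 Zfp genes (red) and 2950 other listed genes (grey), 1 point per gene. The Zfp genes lie above 0 and mostly below 43% GC; with TMM factors 140 of the 173 tested lie above 0. The point at 6.95 is Zfp758, which has no reads in PIA.

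Near-identical copies limit what single members show. In 40 of 182 members over 20% of the 50-base windows of the transcript also occurred in another GENCODE transcript, and in 19 over 50%, while 54 shared none. Zfp97 and its neighbour Zfp960 shared 83.1 and 84.5% of their windows, mainly with each other. Zfp960 had 27.1 and 15.5 normalised reads in PIA+IL-27, 3.84 and 1.09 in PIA, and 0 and 23.8 in Control, and Zfp97 had 20.9 and 1.94 in PIA+IL-27, 1.92 and 1.09 in PIA, and 0 and 23.8 in Control. The copies differed most in PIA+IL-27 2. Zfp984 and Zfp433 shared 57.4 and 94.2%, and 52 members had at least 1 read count that was not whole, so the deposited counts are estimates for these members.

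The tested members with the word AATGTAGT in their promoter, 25 in number, had a median log2 fold change of 1.62 in PIA+IL-27 against PIA, and the 124 tested members with a matched window without it 1.81. Their median GC contents were 41.7% and 39.98%. Members with the word ranged from 0.68 to 3.38, from Zfp112 to Zfp72.

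Most genes related to the members by function or fold were above 0 in PIA+IL-27 against PIA, as were 74.8% of all tested genes. Of 10 listed genes of the KRAB corepressor complex and of heterochromatin, 10 had a log2 fold change above 0 in PIA+IL-27 against PIA, with a median of 1.51, and none passed. Atrx, a chromatin remodeller of heterochromatin, had 1954 and 1347 normalised reads in PIA+IL-27, 430 and 312 in PIA, and 357 and 1452 in Control (2.15 ± 0.83, adjusted p = 0.257, edgeR). Smchd1, which helps to keep the inactive X chromosome silent, had 637 and 457 in PIA+IL-27, 171 and 125 in PIA, and 130 and 536 in Control (1.88 ± 0.86, adjusted p = 0.258). Trim28 itself was not among the listed genes. Of 6 imprinted genes 5 were above 0, with a median of 1.30. Peg3, a paternally expressed gene that itself encodes a zinc finger protein, had 1954 and 1637 in PIA+IL-27, 537 and 544 in PIA, and 385 and 2193 in Control (1.73 ± 0.82, adjusted p = 0.258).

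Of 39 genes with a KRAB box under other names 35 were tested, all 35 above 0, with a median of 1.72. In other C2H2 families, such as Zbtb and Zeb genes, 26 of 27 were above 0, with a median of 1.32. Zbtb20, a factor of hippocampal neuron fate, had 236 and 1379 normalised reads in PIA+IL-27, 250 and 55.6 in PIA, and 317 and 1548 in Control (2.40 ± 0.85, adjusted p = 0.246, edgeR). It was high in PIA+IL-27 2 and Control 2 alone, whereas 135 of the 185 Zfp genes were highest in PIA+IL-27 1. Of 9 genes on a list of CCCH and CCHC finger genes 7 were above 0, with a median of 1.36. That list also held Zmat1, whose fingers are of another type. Zc3h12a, an RNase that degrades cytokine mRNAs, had the opposite sign, with 15.6 and 2.91 in PIA+IL-27, 48.0 and 40.4 in PIA, and 29.4 and 7.62 in Control (-2.24 ± 1.12, adjusted p = 0.264). The 4 palmitoyltransferases with a DHHC finger had a median of 1.36. None of these lists had a gene that passed. In PIA against Control their medians were -0.75 for the corepressor list, -1.10 for imprinted genes, -0.99 for other KRAB genes and -0.84 for other C2H2 families, and in PIA+IL-27 against Control 0.72, 0.40, 0.62 and 0.52.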

How the data were processed

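Libraries were grouped by the treatment in the labels. The authors' deposited table gives, per the file headers, a read count per gene and library, here an expected count since 11.3 to 13.3% of values are not whole, a normalized read count (a signal equal to the read count divided by 1 factor per library), and TPM and FPKM over the whole library. FPKM was not used in a result. For each comparison the authors deposited a log2 ratio of the groups with a p-value and its Q value. Neither the test behind them nor the aligner, the counter or the build is given in the sources used here.

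Expected counts were rounded and tested with edgeR 4.0.16 (R 4.3.3; quasi-likelihood, group only, all 6 libraries, the authors' factors, filterByExpr, 3216 genes), with Benjamini-Hochberg adjustment and a threshold of 0.05. The biological coefficient of variation was 0.597. The prior degrees of freedom of the dispersion were infinite, so the dispersion was shared over genes. A gene's SE and p thus rest mainly on this shared spread, not on its own replicates. Zbtb20 and Trim33 both had an SE of 0.85 in PIA+IL-27 against PIA, although the libraries of a group lay farther apart in Zbtb20. The edgeR steps were tested on simulated counts. Those counts did not hold the gap between the Control libraries, so that test does not bear on it. GC content, length and links came from GENCODE M21 and promoters from RefSeq (GRCm38.p6). The alternatives used limma 3.58.1 and DESeq2 1.42.0 among others. Named genes were, per comparison, the 5 higher and 5 lower members with the smallest p, and in addition the 5 with the highest mean TPM, a list with known roles, and up to 4 genes of each related list. Members, lists and tests were chosen with earlier results of these data known. The listed marker of 1 cell type is not reported here.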

Additional observations from a re-analysis of the deposited data

How the results depend on the processing

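Of 37 named fold changes under 644 alternatives, 599 kept their direction and their side of the threshold, 22 passed it (13 with the crossed block and 9 in fits of the compared libraries alone) and 23 changed sign. In all alternatives other than these 2 settings, 0 members were called in each comparison. Calls over all genes were 7, 14 and 10 in PIA against Control, PIA+IL-27 against PIA and PIA+IL-27 against Control. With TMM factors, with median-of-ratios factors and with GC and length trends removed they were 0 in each. DESeq2 called 2, 4 and 1. The robust estimate called 4 and 8 in the first pair, and a term marking PIA 2 with PIA+IL-27 1 called 2 and 3 in the last pair. With limma on log2(TPM + 0.1) the first was 12 and the last 5, and on log2(TPM + 1) the last was 2. Fits of the compared libraries alone called 449 genes and 51 members in PIA+IL-27 against PIA, and 1 gene in PIA+IL-27 against Control. Leaving out 1 library gave 0 to 7 calls in each comparison.

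The Zfp medians of -1.09, 1.82 and 0.73 were -0.31, 0.56 and 0.22 with TMM factors and -0.31, 0.60 and 0.27 with median-of-ratios factors. With GC and length trends removed they were -0.20, 0.38 and 0.11. Leaving out 1 library gave -1.66 to 0.10, 1.59 to 1.97 and 0.12 to 1.92. For each of these the cause was not tested, apart from the missing library where 1 was left out.

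The libraries share replicate numbers, but the deviations of same-numbered libraries correlated at 0.002, -0.20 and -0.03 over 3216 genes, and no pairing was assumed. Groups of 2 libraries hold too few deviations to exclude a pairing, which is not known. With the replicate block 3, 4 and 3 genes and 0 members were called, and the Zfp medians were -0.96, 1.82 and 0.84. The negative value led to a crossed block in PIA+IL-27 against PIA, chosen after seeing the data, which called 1195 genes and 109 members. The genes and members tested in it were those of the fit to the PIA+IL-27 and PIA libraries alone, given in the results.

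Single genes changed sign as follows. In PIA+IL-27 against PIA, Zfp326 was at -0.0462, Zfp318 at -0.11 and Zfp266 at -0.0845 with TMM factors, Zfp318 at -0.0683 and Zfp266 at -0.0508 with median-of-ratios factors, and Zfp318 at -0.20, Zfp266 at -0.63 and Zfp148 at -0.57 with GC and length trends removed. In PIA+IL-27 against Control, Zfp831 was at 0.14 with that term, Zfp97 at 0.0766 with the replicate block, and Zfp934 at 0.0109 and Zfp97 at 0.19 with limma on log2(TPM + 0.1). Leaving out 1 library gave, in PIA against Control, -0.14 to 1.51 for Zfp459, -0.64 to 2.04 for Zfp472, -4.38 to 3.19 for Zfp97 and -7.14 to 0.10 for Zfp979. In PIA+IL-27 against Control it gave -8.20 to 0.25 for Zfp474, -0.86 to 0.31 for Zfp831, -0.54 to 0.00739 for Zfp112, -0.92 to 1.17 for Zfp934 and -3.46 to 6.38 for Zfp97. The ends for Zfp97 and Zfp979 and the lower end for Zfp474 come from fits with 0 to 3 reads left in a group, so they are no measured sizes. Taking 3 counts as the least a group could hold, -7.14 stands for at least 5.96-fold lower in PIA, -8.20 for at least 11.7-fold lower in PIA+IL-27 and 6.38 for at least 3.88-fold higher in PIA+IL-27, and for 3.19 both groups hold fewer than that. With 1 library left in a group, it is assumed to vary like the others. Groups of 2 and the wide Control group limit all comparisons, and members under 1 TPM rest on few reads.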
